A study of Mus musculus with 2 samples.

Results

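A pair of inhibitor genes of the transcription factor NF-kB rose when 4OHT was withdrawn from mouse progenitors transformed by Hoxa9-ER, and none of the 5 NF-kB subunit genes was called changed. The 10 genes described here encode the subunits (Nfkb1, Nfkb2, Rel, Rela and Relb) and 5 inhibitors (Nfkbia, Nfkbib, Nfkbie, Nfkbiz and Tnfaip3). They were taken by gene symbol from a deposited table of 23235 rows. Each symbol matched 1 row, and all 10 were among the 11865 rows that the authors tested. Of those rows 22.5% were called changed. Nfkbia went from 13.0 FPKM (a read count scaled by transcript length and library size) with 4OHT to 28.6 FPKM in EtOH. Tnfaip3 went from 2.22 to 4.47 FPKM.

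NF-kB proteins act as dimers of subunits that share the Rel homology domain. In resting cells IkB proteins hold most dimers in the cytoplasm, until the IkB kinase (IKK) marks the IkB protein for degradation and the dimer enters the nucleus. There it activates cytokine, chemokine and survival genes in myeloid cells, together with the genes of some of its own inhibitors, which closes a negative feedback loop.

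The cells were hematopoietic progenitor cells from lineage-depleted bone marrow of C57B6 mice. Both samples carried MIGR1-HA-Hoxa9-ER together with a further retrovirus, MIGR1-Flag-Meis1, and both grew in IL3 after transformation in 100 nM 4OHT, a tamoxifen metabolite that keeps the Hoxa9-ER fusion nuclear. The 4OHT sample was washed and kept in 100 nM 4OHT for 72 h, and the EtOH sample was washed and kept for 72 h in ethanol, the vehicle, which removes nuclear Hoxa9-ER. The characteristics field names the first virus without ER, while the growth protocol gives the fusion. Cells that never carried the viruses were not analysed here, so the control itself is a Hoxa9- and Meis1-transformed culture. Each sample stands for 2 biological replicates but has 1 FPKM value per gene, so levels below carry no replicate error. "Rose", "fell" and "called" refer to the authors' deposited table, made with Cuffdiff, at a threshold of 0.05 on its q-values. Of all tested rows 22.5% were called, 12.0% higher and 10.5% lower in EtOH.

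The whole series sets the frame for these genes. The sum of all FPKM values was 544802 with 4OHT and 591496 without it, and read totals are unknown. All 6 progenitor markers examined (Kit, Cd34, Flt3, Myb, Sox4 and Spi1, listed as Sfpi1) reached 1 FPKM in 4OHT and 5 did so in EtOH. Of these 6, Cd34 (124 to 45.8 FPKM), Flt3 (14.5 to 0.239 FPKM) and Sox4 (9.54 to 2.38 FPKM) fell, and Sfpi1 rose from 77.5 to 167 FPKM. Kit (7.39 to 10.1 FPKM) and Myb (164 to 127 FPKM) were not called. Maturation markers rose in the same comparison: all 10 neutrophil markers rose, from a summed 130.5 to 16268 FPKM, as did 6 of 7 eosinophil markers (134 to 4693 FPKM) and 8 of 8 basophil and mast cell markers (1282 to 4807 FPKM). Of 8 monocyte and macrophage markers 6 rose and the abundant Emr1 fell (202 to 102 FPKM), so that their sum went from 223 to 165 FPKM. Lymphoid cells left little trace. The 7 B cell markers summed to 1.17 and 2.00 FPKM, with Ms4a1, Pax5 and Ebf1 listed at 0 in both samples, and the 7 T cell markers to 4.97 and 3.29 FPKM, with Cd3e, Cd3g and Cd4 listed at 0 in both. In bulk RNA, more cells of a type and more RNA per cell cannot be told apart, and the part of maturing granulocytes in the values below was not tested.

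Because NF-kB feeds back on its own genes through kappaB elements, the promoters of the members were read for that motif. RefSeq promoter windows of 300 bases (250 before the start and 50 after it, GRCm38.p6) were found for 7 of the 10 genes, all but Nfkb1, Relb and Nfkbiz. The 130 bases before the first start of each are shown 5′ to 3′, with matches to the kappaB consensus, a degenerate motif of 10 bases searched on both strands, in capitals. Overlapping matches form 1 run. Nfkbia and Tnfaip3 come first, as the genes that rose in EtOH, followed by 3 genes with a match that were not called and 2 genes with none.
Nfkbia: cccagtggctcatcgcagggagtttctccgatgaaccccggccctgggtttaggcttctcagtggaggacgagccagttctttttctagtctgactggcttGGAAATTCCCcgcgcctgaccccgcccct
Tnfaip3: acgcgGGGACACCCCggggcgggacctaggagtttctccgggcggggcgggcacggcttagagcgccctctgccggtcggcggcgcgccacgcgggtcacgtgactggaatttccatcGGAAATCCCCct
Nfkb2: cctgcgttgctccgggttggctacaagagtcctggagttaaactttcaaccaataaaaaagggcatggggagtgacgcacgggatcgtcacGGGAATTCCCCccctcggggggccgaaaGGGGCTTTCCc
Rel: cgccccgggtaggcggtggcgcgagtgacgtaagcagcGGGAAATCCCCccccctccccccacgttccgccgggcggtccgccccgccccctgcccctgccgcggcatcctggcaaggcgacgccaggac
Nfkbie: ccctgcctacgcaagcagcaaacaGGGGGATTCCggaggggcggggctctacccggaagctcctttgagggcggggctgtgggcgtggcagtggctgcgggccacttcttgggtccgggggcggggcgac
Rela: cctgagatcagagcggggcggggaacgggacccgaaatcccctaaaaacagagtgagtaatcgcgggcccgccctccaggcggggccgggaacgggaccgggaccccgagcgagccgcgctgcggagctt
Nfkbib: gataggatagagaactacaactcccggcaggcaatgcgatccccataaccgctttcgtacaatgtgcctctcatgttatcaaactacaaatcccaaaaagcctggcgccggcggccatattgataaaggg
The stretches lie at chr12:55492648-55492777 (minus strand) for Nfkbia, chr10:19015411-19015540 (minus strand) for Tnfaip3, chr19:46304607-46304736 (plus strand) for Nfkb2 and chr11:23770970-23771099 (minus strand) for Rel. Those of Nfkbie, Rela and Nfkbib lie at chr17:45555570-45555699 (plus strand), chr19:5637411-5637540 (plus strand) and chr7:28766645-28766774 (minus strand).

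A kappaB consensus match stood in the promoter of 5 of these 7 genes, Nfkbia, Tnfaip3, Nfkb2, Rel and Nfkbie. Among all 27025 genes with a window 9.55% had one, and among the 8437 tested genes with a window 12.2%. In Nfkbia, which encodes the inhibitor IkB-alpha, the match GGAAATTCCC lay 29 to 20 bases before the start. Tnfaip3 had GGAAATCCCC 12 to 3 bases before its first start and GGGACACCCC further out, from 125 to 116 bases before it. Nfkb2 has 3 annotated starts, and the window of each held a match, although the windows of the downstream pair of starts overlap and share the match GGGACTTTCC. The windows of Rela and Nfkbib held no consensus match. A wider motif (3 G, any 5 bases and 2 C, on either strand), which takes in every consensus match, stood in 6 of the 7 genes and in 53.5% of all genes with a window, so its presence says little about a gene. Promoters rich in G and C hold such motifs more often: GC content ranged from 47% to 75% over the 10 windows of the members, and of all windows in that range 10.4% had a consensus match, against 8.46% of windows of any GC content. These are matches of letters in a window, and no binding was measured. Of the 5 genes with a match 2 rose and 3 were not called. Of the 1032 tested genes with a match 134 were called higher, beside 1076 of all 8437 tested genes with a window. The 2 that rose therefore do not tie the match to a rise.

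**Figure D1:**
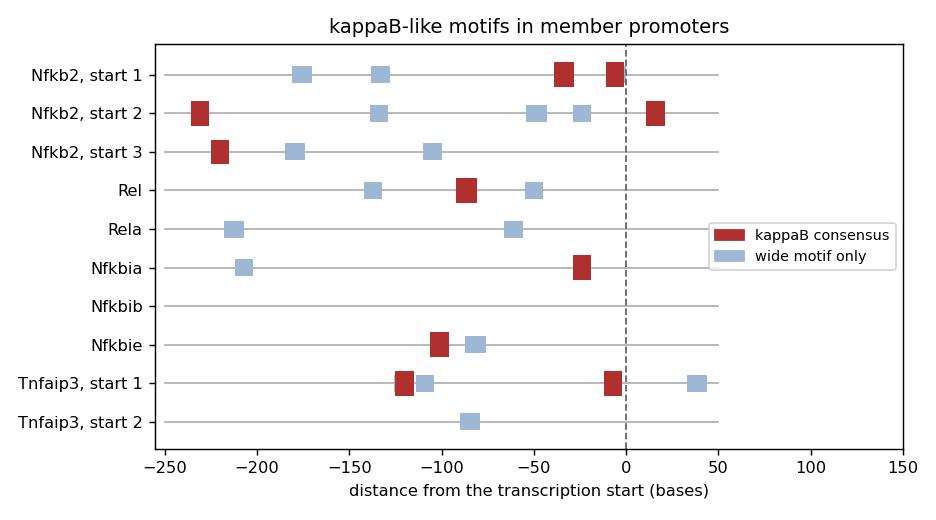
Position of kappaB consensus matches (red) and of matches to the wider motif alone (blue) in the 300-base promoter windows of 7 member genes, as distance in bases from the transcription start (dashed line). Nfkb2 and Tnfaip3 have several starts, and the lower pair of Nfkb2 windows overlap, so 1 site is drawn in both. Rela, Nfkbib and the window of the second Tnfaip3 start have no red box.

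Among the subunits, Nfkb1 was by far the most abundant RNA in both samples. Nfkb1 encodes p105, the precursor of the p50 subunit, which itself retains dimers like an IkB protein. Its level was 58.5 FPKM in 4OHT, above 87.9% of tested genes, and 47.3 FPKM in EtOH, above 85.0% of them. The ratio of EtOH over 4OHT was 0.809, with a 95% interval of 0.667 to 0.980 implied by the authors' deposited p-value of 0.0302. The authors' deposited table gave it a q-value of 0.108, so Nfkb1 was not called. Its locus is on chromosome 3, 135247619 to 135354511 (mm9, as are all loci below).

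Rela and Nfkb2 were the next subunits in level. Rela encodes p65, the subunit with the main transactivation domain of the canonical pathway, and stood at 17.2 FPKM in 4OHT and 18.8 FPKM in EtOH. Its ratio was 1.09 (95% interval 0.875 to 1.37) and its q 0.667 by the authors' deposited table. The Rela interval runs from a fall to a rise, so the direction of any change was not resolved. Nfkb2, which encodes p100, the precursor of p52 in the non-canonical pathway, stood at 6.22 FPKM in 4OHT and 8.86 FPKM in EtOH. Its ratio of 1.42 (1.08 to 1.89) had a p-value of 0.0136 in the authors' deposited table, but its q-value of 0.0579 lay just above the threshold. Rela and Nfkb2 are both on chromosome 19, at 5637490 to 5648130 and 46379227 to 46401646. The Nfkb2 locus overlaps Psd, which stood at 0.228 and 0.365 FPKM and was not tested.

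Rel and Relb had low RNA levels. Rel encodes c-Rel, a subunit known from lymphocytes and activated myeloid cells, and stood at 4.09 FPKM in 4OHT and 3.09 FPKM in EtOH, a ratio of 0.755 (0.534 to 1.07), and its q was 0.284 by the authors' deposited table. Relb encodes the usual partner of p52. It stood at 1.28 and 1.13 FPKM, a level above 12.8% of tested genes in 4OHT and 11.1% in EtOH. Its ratio of 0.881 (0.549 to 1.41) came with q = 0.799 by the authors' deposited table, and its interval was the widest of the 10 genes on the log scale. Rel lies on chromosome 11, 23641729 to 23670970, and Relb on chromosome 7, 20191571 to 20214787. In all, 0 of 5 subunits were called by Cuffdiff, beside 22.5% of all tested rows, so the count does not set the subunits apart. Nfkb1 and Nfkb2 had an unadjusted Cuffdiff p-value of at most 0.05, in opposite directions.

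Nfkbia had the highest ratio of the 10 genes. Its protein, IkB-alpha, binds dimers that contain p65 and is resynthesised after each round of activation. Its RNA stood at 13.0 FPKM in 4OHT, above 54.5% of tested genes, and at 28.6 FPKM in EtOH, above 75.7%. The ratio was 2.20 (95% interval 1.72 to 2.82), with q = 8.49e-09 by the authors' deposited table. On the log2 scale with 1 FPKM added to both values the change was 1.08, higher than that of 95.8% of tested genes. Nfkbia is a short gene on chromosome 12, 56590396 to 56593634, and none of its 50-base words occurs in transcripts of other genes.

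Tnfaip3 was the other gene that rose. It encodes A20, a ubiquitin-editing enzyme that shuts down signalling upstream of IKK and is itself induced by NF-kB. Its RNA stood at 2.22 FPKM in 4OHT and 4.47 FPKM in EtOH, below 5 FPKM in both. The ratio was 2.01 (1.48 to 2.74), with q = 9.1e-05 by the authors' deposited table. Its log2 change of 0.76 was higher than that of 93.3% of tested genes. At so low a level the value moves with the constant added: it was 0.39 when 5 FPKM was added to both samples and 0.98 when 0.1 FPKM was. Tnfaip3 lies on chromosome 10, 18720717 to 18735216. The intervals of Nfkbia and Tnfaip3 overlap for most of their length, so the pair cannot be ranked by size of change.

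The other inhibitor genes among the members were not called. Nfkbib, which encodes IkB-beta, an inhibitor that NF-kB does not induce as IkB-alpha is, stood at 12.3 FPKM in 4OHT and 12.2 FPKM in EtOH. Its ratio was 0.993 (0.764 to 1.29), and its q was 0.988 by the authors' deposited table. The interval of Nfkbib ends below the start of that of Nfkbia. Nfkbie, which encodes IkB-epsilon, stood at 6.26 and 6.12 FPKM, a ratio of 0.978 (0.730 to 1.31), and its q was 0.956 by the authors' deposited table, and its promoter holds a kappaB consensus match. Nfkbiz encodes IkB-zeta, a nuclear IkB protein that works as a cofactor of p50 on secondary response genes rather than only as an inhibitor. It was near the bottom of the range, at 1.27 FPKM in 4OHT and 1.797 FPKM in EtOH, and its ratio of 1.42 (0.958 to 2.09) came with q = 0.228 by the authors' deposited table. Nfkbib lies on chromosome 7, 29541193 to 29551543, Nfkbie on chromosome 17, 45692665 to 45700117, and Nfkbiz on chromosome 16, 55811490 to 55838754. The Nfkbib locus overlaps Gm6537, which stood at 0.118 and 0.104 FPKM.

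**Figure D2:**
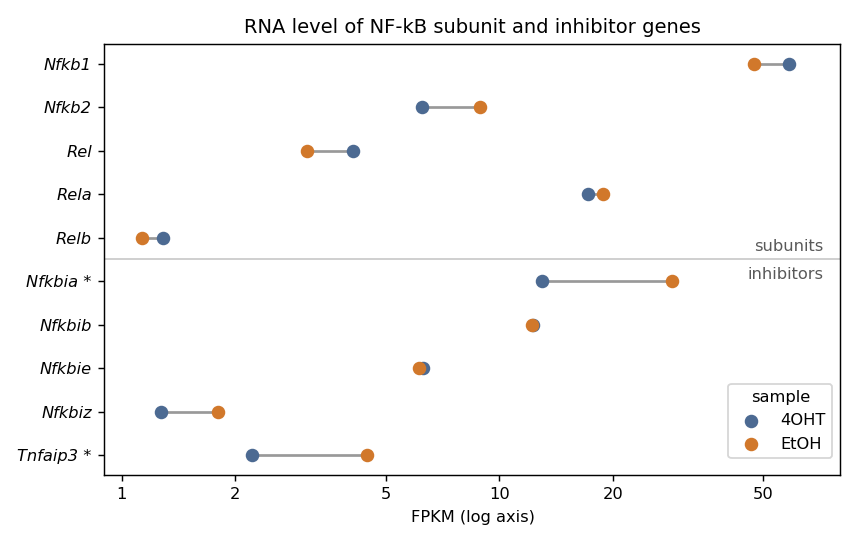
RNA level of the 10 genes in FPKM (log axis) in the 4OHT sample (blue) and the EtOH sample (orange), 1 value per sample, with subunits above the line and inhibitors below it. Asterisks mark the 2 genes called in the authors' deposited table, Nfkbia and Tnfaip3, which both lie further right in EtOH.

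**Figure D3:**
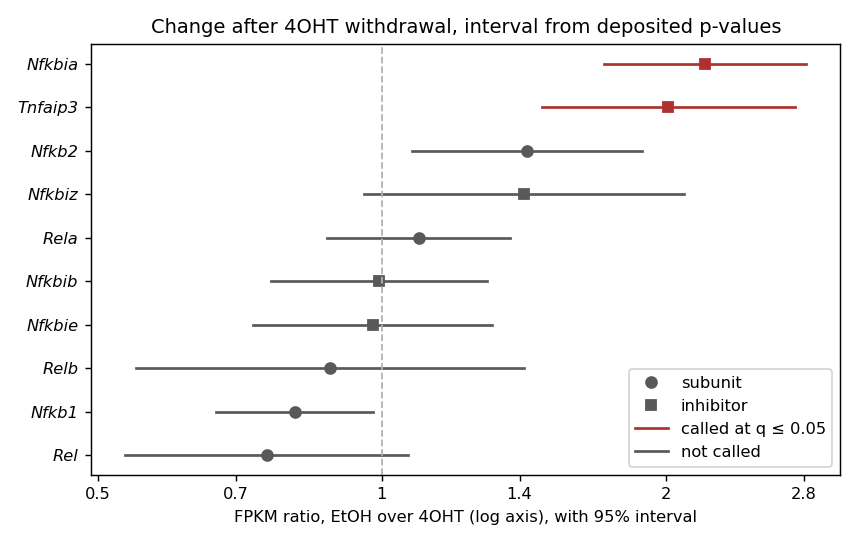
Ratio of FPKM in EtOH over 4OHT (log axis) for the 10 genes in order of size, with bars for the 95% interval implied by the authors' deposited p-value. Nfkbia and Tnfaip3 (red) have intervals that start at 1.72 and 1.48. Nfkb2 and Nfkb1 have intervals that leave out 1 but q-values above 0.05.

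Over the 10 genes, 2 were called higher and 0 lower, and the median log2 change was 0.057, beside -0.052 over all tested rows. With EtOH scaled to equal FPKM sums the median of the 10 genes was -0.054. The same scaling moved the median over all rows of at least 1 FPKM from -0.056 to -0.162. The authors called 22.5% of all tested rows, and 2 in 10 is near that share, so the count by itself does not set these genes apart. Unadjusted p-values of at most 0.05 numbered 4. The share of all tested rows at that p-value was not computed, so this count does not set the genes apart either. The 5 subunits had a median of -0.10 and the 5 inhibitors of 0.30. These medians are the values of Relb and Nfkbiz, low genes that were not called and whose intervals include a ratio of 1. With 5 FPKM added to both samples these genes had -0.036 and 0.12, so the medians do not set the groups apart. Of the 50-base words of Relb 0.6498% occurred in transcripts of other genes, and the other 9 genes had lower shares.

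Since FPKM is per length, levels can be added and compared across genes. The 5 subunits summed to 87.2 FPKM in 4OHT and 79.1 FPKM in EtOH, and the 5 inhibitors to 35.0 and 53.2 FPKM. Inhibitor RNA per subunit RNA was thus 0.402 in 4OHT and 0.672 in EtOH, which is 1.67 times as high. Most of that difference came with Nfkbia: without it the ratios were 0.253 and 0.311, or 1.23 times as high in EtOH. The share of Nfkbia in the inhibitor sum went from 37.1% to 53.7%, while that of Nfkbib went from 35.1% to 23.0%. Nfkbia RNA was 1.06 times the level of Nfkbib RNA in 4OHT and 2.34 times in EtOH, and 0.756 and 1.52 times the level of Rela RNA. Within the subunits, Nfkb1 held 67.0% of the sum in 4OHT and 59.7% in EtOH, and Rela 19.7% and 23.7%, so Nfkb1 RNA stood at 3.40 and 2.52 times the level of Rela RNA. These ratios have 1 value per sample and no test. RNA does not show protein levels, and p105 and p100, counted here as subunits, also work as inhibitors before they are processed.

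**Figure D4:**
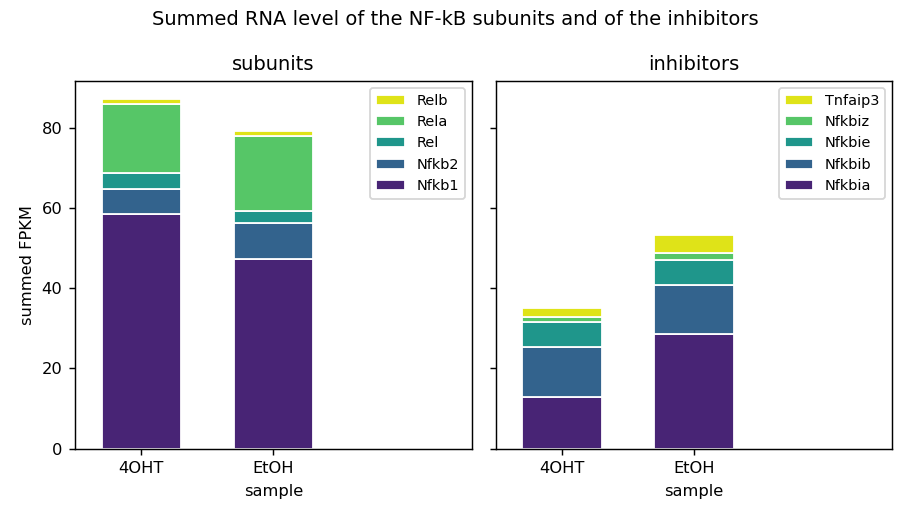
Summed FPKM of the 5 subunit genes (left) and of the 5 inhibitor genes (right) in each sample, stacked by gene, with 1 value per gene and sample. The subunit bars reach 87.2 and 79.1 FPKM, and the inhibitor bars 35.0 and 53.2 FPKM, where the Nfkbia segment grows from 13.0 to 28.6 FPKM.

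The genes around these 10 in the pathway were read from 6 lists made by role, with counts over genes that reached 1 FPKM in one or both samples. The lists were chosen with earlier results of these data known. Of 19 further inhibitors and feedback regulators 4 rose, 0 fell and 15 were not called, with a median log2 change of 0.13. Under the authors' second criterion, which adds a ratio of at least 1.5, 2 of the 4 were called. The genes that rose were Socs1, a cytokine signalling inhibitor (17.6 to 39.1 FPKM), Bcl3, a nuclear IkB protein that binds p50 and p52 dimers (1.00 to 2.95 FPKM), N4bp1 (9.20 to 13.4 FPKM) and Pdlim2, linked to removal of nuclear p65 (13.7 to 19.5 FPKM). Their q-values in the authors' deposited table were 3.23e-08, 4.11e-05, 0.00411 and 0.0448. Nfkbid, another nuclear IkB gene, stood at 4.21 and 5.71 FPKM, and the deubiquitinase gene Cyld at 9.47 and 11.9 FPKM. Tnip1, which encodes a partner of A20, stood at 14.7 and 18.8 FPKM. These last 3 genes were not called.

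The 3 genes of the IKK complex were not called. Chuk, which encodes the kinase IKK-alpha, stood at 18.1 and 15.3 FPKM, and Ikbkb, which encodes IKK-beta, at 16.2 and 19.6 FPKM. The scaffold gene Ikbkg stood at 10.6 and 10.5 FPKM, and its locus overlaps that of G6pdx, which rose from 41.8 to 73.1 FPKM, so reads in the overlap cannot be assigned with certainty. Of 17 genes of the complex and of upstream kinases 4 rose, 1 fell and 12 were not called, with a median of 0.21. At q of at most 0.01 only 1 of the 4 was left, and under the ratio criterion 2 were. Ikbke, an IKK-related kinase known to be inducible, rose from 9.09 to 31.5 FPKM, and its q-value was listed at 0 in the authors' deposited table. Irak2, Map3k14 and Tab2 rose less, by 0.51, 0.43 and 0.40 on the log2 scale. Map3k14 encodes NIK, the kinase of the non-canonical pathway that leads to p100 processing, and stood at 1.53 and 2.398 FPKM. The gene that fell was Map3k8, which encodes the kinase Tpl2, a protein held by p105, from 2.47 to 0.837 FPKM.

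Among 22 adaptor and ubiquitin ligase genes 4 rose, 0 fell and 18 were not called, with a median of 0.16. Both at q of at most 0.01 and under the ratio criterion the count of genes that rose was 2. Of all tested rows 9.41% were called higher at q of at most 0.01 and 9.89% under the ratio criterion. Traf1 rose from 0.829 to 2.62 FPKM, Traf3, whose protein restrains NIK, from 7.87 to 13.1 FPKM, Tank from 17.5 to 25.9 FPKM, and Birc3, an inhibitor of apoptosis gene with 7.38% of its words shared, from 9.31 to 13.1 FPKM. Over all listed genes, low ones included, 4 of 20 further inhibitors, 4 of 17 kinase genes and 5 of 24 adaptor genes rose.

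Over all listed genes, 11 of 20 receptor genes, 6 of 13 ligand genes and 19 of 35 known target genes rose. These are 55.0%, 46.2% and 54.3%, beside 12.0% of tested rows. Because the lists were chosen with earlier results of these data known, the difference from 12.0% is a description only. Among the genes below that rose, 1 receptor gene (Tlr1) and 2 ligand genes (Il1a and Tnfsf13b) reached 1 FPKM in EtOH alone. So did 6 target genes (Bcl2a1a, Bcl2a1b, Ccl2, Csf2, Cxcl2 and Vcam1), and Bcl3 and Traf1 above. All of these had to be higher in EtOH to be counted. The receptor gene Nod2, not called, also reached 1 FPKM in EtOH alone. Map3k8 and Tnfsf11, which fell, and Traf5 and Ccl5, not called, reached it in 4OHT alone and could only be lower in EtOH. Counts and medians over genes that reached 1 FPKM are therefore a description only. Of 15 receptor genes 11 rose and 0 fell, with a median of 0.73, which was 0.51 over all listed genes and 0.44 with 5 FPKM added. Il1rl1, the interleukin 33 receptor gene, rose from 24.5 to 78.6 FPKM, Tnfrsf9 from 87.1 to 245 FPKM, Tlr2 from 2.24 to 8.49 FPKM and Il18r1 from 1.07 to 5.07 FPKM. Of 9 ligand genes 6 rose and 2 fell, with a median of 0.77, or 0.53 over all listed genes and 0.63 with 5 FPKM added. Il1b rose from 1.70 to 30.0 FPKM, Tnfsf13 from 3.49 to 15.1 FPKM, Il1a from 0.264 to 3.27 FPKM and Ltb from 1.84 to 5.61 FPKM, while Tnfsf11, the RANK ligand gene, fell from 6.16 to 0.471 FPKM and Tnfsf9 from 11.2 to 5.17 FPKM. The loci of Il1b, Il1a, Tnfsf13 and Tnfsf9 overlap other measured rows, and 57.3% of the words of Tnfsf13 are shared with other genes.

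Of 24 genes known as NF-kB targets 17 rose, 1 fell and 6 were not called, with a median of 0.95. That median was 0.55 over all listed genes and 0.54 with 5 FPKM added. Among targets that reached 5 FPKM in either sample 11 rose, and of these Bcl2a1b reached it in EtOH alone. Il6 rose from 20.03 to 193 FPKM and the chemokine gene Ccl4 from 27.8 to 108 FPKM. Bcl2a1b and Bcl2a1a, survival genes of a recently duplicated family, rose from 0.208 to 7.19 and from 0.193 to 3.92 FPKM, but 79.2% and 69.0% of their words are shared with other genes, so their own levels are uncertain. The target that fell was Sod2, from 20.6 to 14.9 FPKM. It was not called at q of at most 0.01 or under the ratio criterion, and 21.0% of its words occur in other genes. Many of these genes are also expressed by maturing granulocytes, mast cells and macrophages, whose markers are given above, and no test here bears on which cells their RNA came from. Lcn2 and Mmp9 stand both in the target list and among the neutrophil markers, so their rise is counted in both. Over all 6 lists 49 of 129 listed genes rose, 46 of them among the 106 genes that reached 1 FPKM, where 4 fell. The other 23 stayed under 1 FPKM in both samples, and 3 of those, Card10, Bcl2a1d and Mmp9, named after their values were seen, were called higher. The lists were not tested against each other or against other genes.

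**Figure D5:**
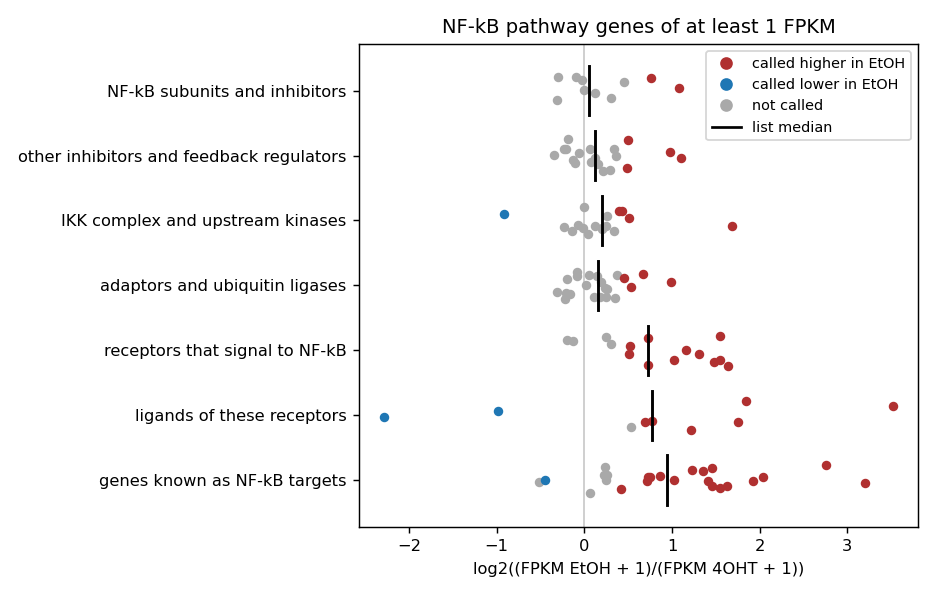
Change of each pathway gene that reached 1 FPKM in one or both samples, as log2((FPKM EtOH + 1)/(FPKM 4OHT + 1)), by list, with genes called higher in red, called lower in blue and not called in grey, and the list median as a black bar. Medians lie at 0.057 for the 10 subunit and inhibitor genes, between 0.13 and 0.21 for the 3 lists of intracellular signalling genes, and at 0.73, 0.77 and 0.95 for receptors, ligands and targets. Genes that reached 1 FPKM in EtOH alone are drawn too and could only be higher, and those that reached it in 4OHT alone could only be lower. Vertical scatter within a list has no meaning.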

How the data were processed

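RNA sequencing of 2 samples, 4OHT and EtOH, was analysed from 1 deposited gene table. Per the labels' protocols, column-purified RNA went into Illumina TruSeq libraries. The submitters' processing notes name Cuffdiff 2.0.2, Bowtie2 2.0.0.7, CASAVA 1.8.2 and, as build, mm9. Annotation, strand setting and the handling of replicates were not given in the sources used here. It is not known how far the authors' test reflects replicate spread.

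The authors deposited, per the file headers, 1 FPKM value for each gene and sample, and for each gene a p-value, a q-value and a test statistic. All 11320 finite p-values compared (those above 1e-12) equalled the 2-sided normal tail of the deposited statistic to within 1%. Adjusting them by Benjamini-Hochberg over 11865 tested rows gave the deposited q-values with a largest difference of 1.7e-06. The deposited p-values were therefore turned into 95% intervals of the ratio by taking the log ratio as a normal estimate. Locus starts are counted from 1.

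Log2 changes added 1 FPKM to both values. List counts and medians used genes with at least 1 FPKM in either sample. The members and lists were chosen with earlier results of these data known. Besides the 10 members, up to 4 called genes per list and direction with the largest change were named, plus 8 genes by role. Older symbols, such as Fam105b for Otulin, were matched through RefSeq names (GRCm38.p6), and promoters came from RefSeq on the same build, so no mm9 coordinate was used for sequence. Shared sequence was measured as 50-base words in GENCODE M21 transcripts. Protein sequences were not used here. The steps for calls, intervals and list counts were run on simulated normal log ratios, with p-values made from the same known error. That run did not cover the promoter and shared-word steps. It cannot show whether intervals from the authors' p-values hold. Computation used Python 3.11.15, pandas 2.3.3 and SciPy 1.17.1.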

Additional observations from a re-analysis of the deposited data

How the results depend on the processing

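The calls of Nfkbia and Tnfaip3 held at q of at most 0.01 and with the authors' second criterion of a ratio of at least 1.5. Both settings are stricter than the main one, so the other 8 members could not gain a call under them. Looser thresholds were not tried. With EtOH scaled to equal FPKM sums the median log2 change of 7820 genes of at least 5 FPKM in both samples moved from -0.062 to -0.17, and the median of the 10 members from 0.057 to -0.054. With the median ratio set to 1, Nfkbib and Nfkbie turned to 0.052 and 0.029. Scaling did not change the direction of Nfkbia or Tnfaip3, but the authors' q-values could not be recomputed under it. With a minimum of 5 FPKM, which leaves out Tnfaip3, 1 member was called higher, 0 upstream kinases lower and 11 target genes higher. At q of at most 0.01 the counts called higher were 1 for upstream kinases and 2 for adaptors, and 0 targets were called lower. With the ratio criterion they were 2 for other inhibitors, 2 for upstream kinases and 2 for adaptors, again with 0 targets lower. Of all tested rows 9.41% were called higher and 6.68% lower at q of at most 0.01, and 9.89% and 7.23% with the ratio criterion. Inhibitor RNA per subunit RNA, 1.67 times as high in EtOH, was 1.64 times as high without Tnfaip3, 1.23 without Nfkbia and 1.37 without Nfkb1. Promoters with the motif numbered 6 with the wider motif, also within the 250 bases before the start alone, and 5 with the consensus. No paired analysis was possible because each sample has a single FPKM value per gene, and for the same reason no replicate could be left out. Depth is unknown, and the 4 members under 5 FPKM in both samples, Relb, Nfkbiz, Rel and Tnfaip3, have the widest intervals on the log scale.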

Other observations

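The kappaB consensus match that 5 of the 7 readable member promoters hold was also looked for in the other pathway lists. It stood in 6 of 14 other inhibitors and feedback regulators with a promoter window, or 42.9%, namely Bcl3, Nfkbid, Cyld, Tnip1, Tnip3 and Tax1bp1. Of these Bcl3 rose, Nfkbid, Cyld, Tnip1 and Tax1bp1 were not called, and Tnip3 was not tested by the authors. Of 35 listed NF-kB targets 24 had a promoter window, a set other than the targets that reached 1 FPKM, and the match stood in 10 of them, or 41.7%. Il6, Cxcl2, Bcl2l1, Csf1 and Ier3 among these rose, Sod2 fell, Xiap and Irf1 were not called, and Cxcl1 and Cxcl10 were not tested by the authors. Of all 35 listed targets, with or without a match, 19 rose. The IKK and upstream kinase genes had it in 15.4%, adaptors and ubiquitin ligases in 15.0%, receptors in 16.7% and ligands in 9.09%, beside 12.2% of tested genes. These shares describe letters in a window, were computed after the calls were known and were not tested.

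Across the whole table the match was found in 12.5% of 1076 genes called higher, 14.0% of 890 genes called lower and 11.9% of 6471 genes tested and not called. Taking for each gene its window of highest GC content, the median GC content was 61.7%, 62.0% and 61.7% in these groups. Hoxa9 RNA, which can also come from the retrovirus, was 476 FPKM in 4OHT and 892 FPKM in EtOH.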
